A study of Mus musculus with 3 samples.

Results

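The axon guidance ligands and receptors were followed over the 3 arrays of a study of EWS/ATF1-inducible mouse sarcoma. In this fusion protein, known from human clear cell sarcoma, part of EWSR1 is joined to ATF1, which binds DNA as a relative of CREB. Members were taken by symbol: every probe set with a single gene symbol that belongs to the semaphorins, plexins, neuropilins 1 and 2, ephrins, Eph receptors, Slits, Robo receptors, netrins, Dcc and the Unc5 group. This gave 77 probe sets for 71 of the 19938 genes with a symbol of their own. Unc50 and Unc5cl share the letters of the Unc5 name but are not netrin receptors, which leaves 69 guidance genes, 36 of them ligands and 33 receptors.

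Each group had 1 array. The array labelled control carried RNA of cultured tumor cells kept at 0 microg/ml doxycycline, and the array labelled high doxycycline carried RNA of cultured cells 24 h after exposure to 0.2 microg/ml doxycycline. The array labelled tumor carried RNA from a tumor cut out of an EWS/ATF1-inducible mouse that had received doxycycline for 3 months. All 3 groups therefore carry the transgene, share a mixed strain background and are labelled as soft tissue sarcoma; the labels number both cultures 1297 and the tumor 1281. The number of cell lines, clones or animals behind each array, the age of the mice and the promoter of the transgene are not given in the sources used here.

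Values are deposited intensities, 1 per probe set and array, and differences are between log2(intensity + 1) values, which understates the change of dim genes. Where 3 intensities follow each other, they stand in the order control, high doxycycline, tumor. With 1 array per group no difference was tested, there is no replicate check, and precision is limited by the number of arrays. A gene is called bright in a comparison where the brighter of both arrays lay above its own median over all probe sets (250.0 on control, 226.7 on high doxycycline, 219.8 on tumor), and a difference of at least 2-fold between such values is counted. As the only inner measure of error, probe sets of one gene disagreed by a median of 0.37 on the log2 scale between high doxycycline and control, 0.38 between tumor and control and 0.055 between tumor and high doxycycline. The 90th percentiles were 1.4, 1.6 and 0.32 in the same order. For 19.9%, 21% and 0.77% of such genes the disagreement was at least 2-fold, the limit used for counting. Exactly equal values on both arrays, which can lower the disagreement, stood for 21.6%, 16.9% and 34.6% of all probe sets in that order. Probe sets on an array also share its RNA and processing, so this measure holds no error between samples or arrays.

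Tissue markers went against the labels, which touches every comparison here. On control 11 of 11 macrophage markers exceeded the array's median, but only 2 did on high doxycycline and 1 on tumor, and their summed intensity was 28983, 2399 and 1399 in that order. Endothelial markers summed to 11976, 2841 and 1950 (9, 1 and 1 of 10 above the median), fibroblast and matrix markers to 57029, 6784 and 6295 (8, 7 and 7 of 9), and skeletal muscle markers to 23436, 1396 and 1216 (7, 3 and 2 of 7). The sum of the neuronal markers went the other way, at 12848, 25658 and 28989, with 6 of 8 above the median on each array. Only 4 of them, Scg2, Uchl1, Snap25 and Stmn2, were at least 2-fold brighter than on control. Tubb3 had 1240, 1641 and 1163, Syp had 7158, 6591 and 6294, Ncam1 had 206, 118 and 122, and Elavl4 was listed at 103 on each array. Macrophages, vessels and muscle are parts of a tumor cut from an animal rather than of a culture. Yet their markers were brightest on the array labelled control, except the macrophage marker Cd14 (650, 914 and 158). Whether the labels control and tumor were exchanged was not tested. An exchange would also change what tumor against high doxycycline compares, so directions below are between arrays named by their labels. Fewer cells of a type and less RNA per cell cannot be told apart in such bulk RNA.

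**Figure D1:**
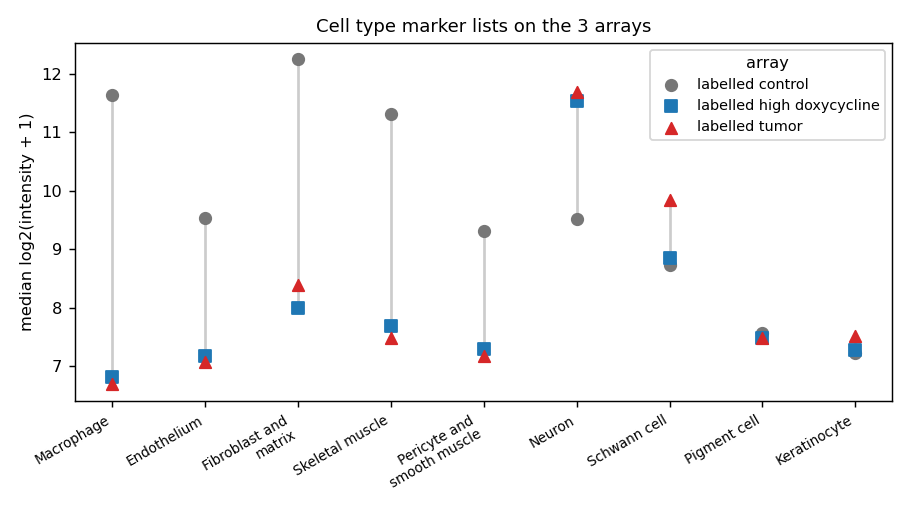
Median log2(intensity + 1) of each cell type marker list (vertical axis) for 9 lists (horizontal axis) on the arrays labelled control (circles), high doxycycline (squares) and tumor (triangles), 1 array each. The macrophage median was 11.63 on control against 6.82 and 6.69 on the other arrays, while the neuron median was 9.52 on control against 11.53 and 11.68.

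Guidance ligands tell a growing axon or a migrating cell where to go. Semaphorins act through plexins, with neuropilins as partners for the secreted class 3 proteins; Slits act through Robo receptors; netrins through Dcc and Unc5 receptors; and ephrins, which stay tied to the cell surface, through Eph receptors. Neural crest cells, the source of peripheral glia and pigment cells, are steered by many of the same molecules, and vessels and immune cells use some of them as well.

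Sema3c, Sema3d and Slit2, which code for secreted ligands, and the receptor genes Robo2 and Epha3 were brightest on tumor and dimmest on control. Slit1, Slit3, Sema7a, Sema6b, Ntn4 and Robo4 ran in the opposite order. These orders are not even steps. On high doxycycline and tumor, Ntn4 (305 and 294), Slit1 (766 and 683) and Sema6b (239 and 212) lay close together, while Slit3 was further apart (1977 and 1020). Sema7a and Robo4 were above the median on control alone, and Sema3d, Robo2 and Epha3 on tumor alone. Of the 71 members, 17 were bright and at least 2-fold apart in at least 1 of the 3 comparisons. That is 32.1% of the 53 bright in any of them, the same share as the 32.1% of all 12111 genes bright in any. They were 13 of 32 bright ligands and 4 of 20 bright receptors. A further 36 were bright in at least 1 comparison and stayed under 2-fold in all of them, and 18 lay at or below the median on every array.

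Sema3c, Slit2 and Sema3d are the members with the largest differences in favour of tumor over control (4.11, 2.75 and 2.24 on the log2 scale), so the 250 bases before their starts in RefSeq (GRCm38.p6) are shown, 5′ to 3′. Epha2 is added because its window is the only one among the members that holds the full cAMP response element. Capitals mark TGACG or its reverse complement CGTCA, the core of the element that CREB and ATF1 proteins bind; the full element TGACGTCA contains both, overlapping.

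Sema3c (chr5:17574566-17574815, plus strand): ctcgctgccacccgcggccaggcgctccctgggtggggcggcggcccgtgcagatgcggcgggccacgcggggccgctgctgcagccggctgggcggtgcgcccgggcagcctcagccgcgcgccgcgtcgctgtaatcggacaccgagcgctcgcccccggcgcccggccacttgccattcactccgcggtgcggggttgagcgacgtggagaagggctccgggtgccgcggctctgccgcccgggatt

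Sema3d (chr5:12382916-12383165, plus strand): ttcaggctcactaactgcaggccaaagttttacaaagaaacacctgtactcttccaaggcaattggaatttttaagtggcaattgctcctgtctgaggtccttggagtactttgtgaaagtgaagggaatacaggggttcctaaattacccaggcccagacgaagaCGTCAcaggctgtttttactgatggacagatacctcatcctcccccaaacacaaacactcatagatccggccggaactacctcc

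Slit2 (chr5:47982905-47983154, plus strand): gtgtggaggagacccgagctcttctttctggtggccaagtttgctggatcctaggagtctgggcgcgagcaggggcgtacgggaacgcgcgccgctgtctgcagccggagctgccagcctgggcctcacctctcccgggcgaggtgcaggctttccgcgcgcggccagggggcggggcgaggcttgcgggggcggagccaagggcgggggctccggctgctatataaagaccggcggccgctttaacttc

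Epha2 (chr4:141300971-141301220, plus strand): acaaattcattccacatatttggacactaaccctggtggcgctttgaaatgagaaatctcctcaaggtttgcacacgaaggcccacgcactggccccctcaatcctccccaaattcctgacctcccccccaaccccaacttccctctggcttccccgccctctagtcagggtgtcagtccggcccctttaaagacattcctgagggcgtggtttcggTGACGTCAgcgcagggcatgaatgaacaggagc

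Windows from 250 bases before to 50 bases after a start were found for 61 of the 71 members, 77 windows in all. TGACGTCA stood in 1 of these 77 windows (1.30%), against 2.37% of the 19177 windows of measured genes. TGACG or CGTCA stood in 10 of 77 (13.0%), against 25.0% of the windows of measured genes, among them those of Sema3d, 84 bases before the start, and Sema7a. No match was found in the windows of Sema3c and Slit2, which says only that these letters are not in these windows. Epha2, whose element begins 33 bases before the start, had intensities of 647, 670 and 585 on control, high doxycycline and tumor, so its values lay close together.

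The tumor and high doxycycline arrays differed least over all probe sets (Pearson r = 0.991, against 0.928 and 0.917 for the pairs with control, across probe sets that are not independent). Here 5 of 47 bright members were at least 2-fold brighter on tumor. These were Sema3d, Slit2, Epha3, Sema3c and Robo2. That is 10.6% of the bright members, where 1.58% of all 11212 bright genes were brighter by that margin. Only Sema6c was at least 2-fold dimmer on tumor, 1 of 47 (2.13%) against 1.94% of all bright genes. The median difference of the members was 0.00, as over all bright genes. For Epha3, Robo2 and Sema3d the tumor array was also the only one above its median, so that they entered this count through that array. With a pseudocount of 64, Epha3 and Robo2 missed 2-fold at 0.96 each on the log2 scale.

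**Figure D2:**
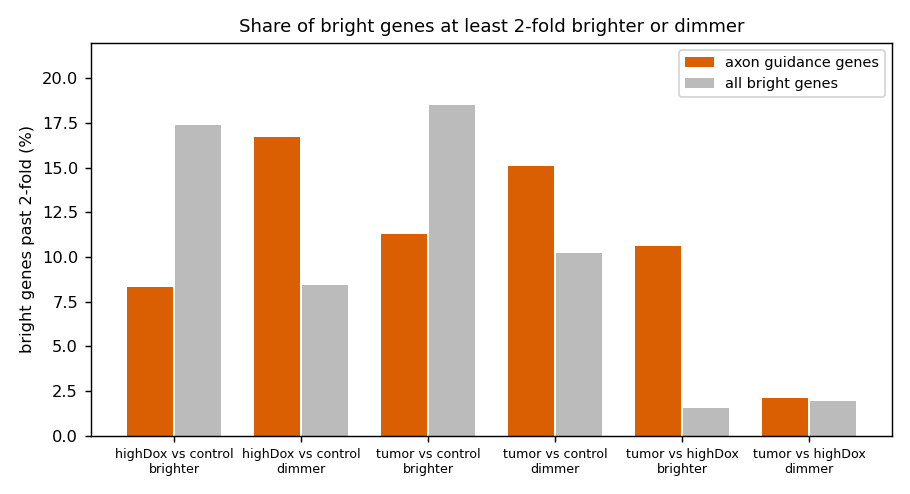
Percentage of bright genes (vertical axis) that were at least 2-fold brighter or dimmer on the first array of each comparison, for axon guidance genes (orange) and all bright genes (grey), named by array label (highDox, high doxycycline). The shares for tumor against high doxycycline, brighter, were 10.6% and 1.58%; no test stands behind any bar.

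Among the secreted class 3 semaphorins, Sema3c, which guides cardiac neural crest cells and vessels during development, had an intensity of 194, 1489 and 3360 on control, high doxycycline and tumor. Its value was thus low on control and high on both others, 7.64-fold brighter on high doxycycline and 17.2-fold brighter on tumor than on control, and 2.26-fold brighter on tumor than on high doxycycline. Sema3d had 101, 124 and 478 in the same order, low on both arrays of cultured cells by label and 3.84-fold brighter on tumor than on high doxycycline. Sema3f, a repellent that acts through neuropilin 2, had 1127, 1332 and 2122, and Sema3a, the classic growth cone collapsing ligand, had 144, 134 and 254. Both were highest on tumor and stayed under 2-fold, at 1.59-fold and 1.89-fold against high doxycycline. Sema3b lay close together at 2494, 2722 and 2807, Sema3e was listed at the same value of 112 on every array, and Sema3g (221, 151 and 151) lay below each median. Over all 7 class 3 members, bright or not, the median difference of tumor from high doxycycline was 0.67 on the log2 scale.

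The receptors that class 3 semaphorins use differed less. Neuropilin 1, Nrp1, had 1820, 2832 and 3086 on control, high doxycycline and tumor, lowest on control by 1.56-fold and 1.70-fold. Nrp2 had 1157, 657 and 894 and was lowest on high doxycycline, 1.76-fold below control, which passed 2-fold under quantile normalization (-1.06 on the log2 scale). Plxnd1, the plexin of vessels and the receptor of Sema3e, had 1695, 758 and 1383, which made it the only plexin past 2-fold, 2.23-fold dimmer on high doxycycline than on control and 1.82-fold brighter on tumor than on high doxycycline. Plxna1 (1746, 1314 and 1714), Plxna3 (529, 508 and 506) and Plxna4 (569, 581 and 581) stayed within 1.33-fold in every comparison. The B plexins, receptors of class 4 semaphorins, were highest on control: Plxnb1 had 714, 535 and 482, and Plxnb2 had 2811, 2136 and 1775. Plxnb3, Plxnc1 and Plxna2 did not exceed the median on any array.

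Several membrane-bound semaphorins were brightest on control. Sema7a, which is anchored in the membrane by a lipid and is made by immune cells as well as neurons, had 483, 121 and 88.5 on control, high doxycycline and tumor. Only the control value lay above its median, and the gene was 3.98-fold and 5.41-fold dimmer on the other arrays. Sema6b had 920, 239 and 212, or 3.84-fold and 4.32-fold dimmer than on control; its 2 probe sets gave the same values to 3 digits. Sema4a, known from immune cells, had 311, 150 and 172 and was 2.06-fold dimmer on high doxycycline than on control, a difference that missed 2-fold under both scalings of the arrays and with both larger pseudocounts, with log2 values from -0.97 to -0.80. Sema4c, a ligand of Plxnb2, had 1594, 1148 and 790 and was 2.02-fold dimmer on tumor than on control, which became -0.83 on the log2 scale with a common median and -0.96 with a pseudocount of 64. Of 13 bright members outside class 3, 3 were at least 2-fold dimmer on high doxycycline than on control and 4 on tumor, and 0 were brighter by that margin in either. These are 23.1% and 30.8% dimmer, against 8.45% and 10.2% of all bright genes, while 17.4% and 18.5% of all bright genes were brighter.

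Sema6c, a transmembrane semaphorin, had an order of its own, with 2036, 2515 and 777 on control, high doxycycline and tumor, so that tumor alone was low, by 2.62-fold against control and 3.23-fold against high doxycycline. Sema6a had the same order in smaller steps (3806, 4276 and 2911). Sema6d was instead highest on tumor (469, 372 and 642), 1.72-fold above high doxycycline. Sema5a was higher on both other arrays (764 and 763) than on control (423), by 1.80-fold. The remaining bright semaphorins Sema4b, Sema4d, Sema4f, Sema4g and Sema5b stayed under 2-fold throughout, and the 2 probe sets of Sema4d disagreed by 0.30 (log2) in the difference of high doxycycline from control.

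The 3 Slit genes split. Slit1 had 4948, 766 and 683 on control, high doxycycline and tumor, 6.46-fold and 7.24-fold dimmer than on control. Slit3 had 4820, 1977 and 1020, also highest on control, 2.44-fold and 4.72-fold dimmer on the others, and 1.94-fold dimmer on tumor than on high doxycycline. Slit2 had 192, 400 and 1296, the reverse order, 2.08-fold and 6.73-fold brighter than on control and 3.23-fold brighter on tumor than on high doxycycline. The difference of Slit2 between high doxycycline and control missed 2-fold with a pseudocount of 64 (0.86 on the log2 scale). Among the receptors, Robo2 had 166, 199 and 447 and was highest on tumor like Slit2, 2.24-fold above high doxycycline, while Robo1 had 325, 398 and 471 with the same order but at most 1.45-fold apart. Robo4, the Robo receptor of endothelium, had 360, 147 and 119 and was above the median on control alone, 2.44-fold and 3.00-fold brighter there. Endothelial markers moved in the same direction (11976, 2841 and 1950 summed), and their part in the Robo4 value was not tested. Robo3 was below the median on each array.

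**Figure D3:**
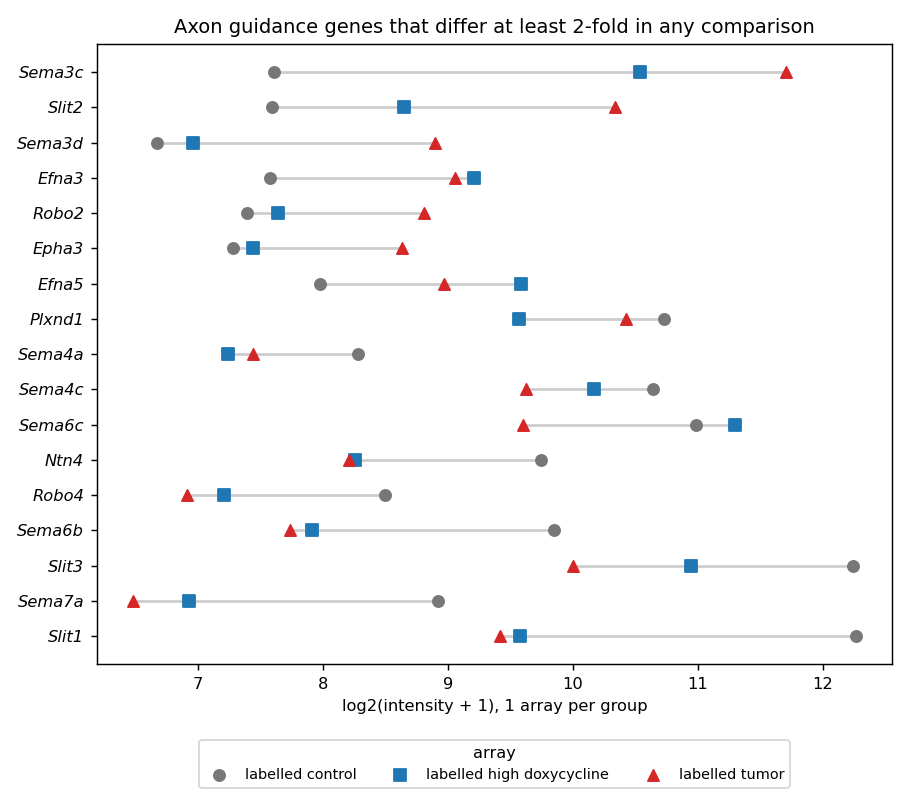
Log2(intensity + 1) (horizontal axis) of the 17 axon guidance genes that were bright and at least 2-fold apart in at least 1 comparison (vertical axis), on the arrays labelled control (circles), high doxycycline (squares) and tumor (triangles), 1 array each, sorted by the difference between tumor and control. Sema3c ran from 7.61 on control to 11.71 on tumor, and Slit1 from 12.27 on control to 9.42 on tumor.

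Ephrins of the A group were brighter on high doxycycline in places. Efna3 had 190, 591 and 531 on control, high doxycycline and tumor, 3.10-fold and 2.78-fold brighter than on control. Efna5, a ligand of Epha3 and Epha4 among others, had 252, 772 and 501 and was 3.05-fold brighter on high doxycycline than on control and 1.98-fold on tumor. Both were low on control and highest on high doxycycline. Efna2 (437, 645 and 645), Efna4 (1061, 1239 and 1052) and Efna1 (658, 438 and 438) stayed under 2-fold. The B ephrins, which span the membrane, were no brighter on the other arrays than on control: Efnb3 had 336, 176 and 170, Efnb1 had 585, 461 and 476, and Efnb2 had 581, 581 and 542.

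Of 13 measured Eph receptors, 6 were bright in tumor against high doxycycline. Of these 1 was at least 2-fold brighter on tumor and 0 were dimmer, against 1.58% and 1.94% of all bright genes. Epha3 had 155, 172 and 395 on control, high doxycycline and tumor, above the median on tumor alone, 2.28-fold above high doxycycline and 2.54-fold above control. Epha4 had 339, 676 and 563 and missed the 2-fold limit against control narrowly at 0.99 on the log2 scale. Ephb4, the partner of Efnb2 in vessel walls, had 1507, 978 and 1062 and was highest on control by 1.54-fold and 1.42-fold. Epha10 (327, 260 and 245) and Ephb3, listed at 371 on every array, completed the bright receptors beside Epha2. Epha1, Epha5, Epha6, Epha7, Epha8, Ephb1 and Ephb6 lay below the median on every array.

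Among netrins and their receptors 1 gene was past 2-fold. It was 1 of 5 bright members dimmer on high doxycycline than on control (20%, against 8.45% of all bright genes). On tumor it was 1 of 6 (16.7%, against 10.2%). Ntn4, a basement membrane netrin, had 858, 305 and 294 on control, high doxycycline and tumor, 2.81-fold and 2.91-fold dimmer than on control. Ntn1, the founding axon attractant, had 791, 681 and 497, lowest on tumor but at most 1.59-fold apart, and Ntn3 had 276, 210 and 180. Of the receptors, Unc5b, which vessels also use, had 1067, 1296 and 951, Unc5a had 268, 163 and 205 and Unc5c had 160, 172 and 241. These 3 stayed under 2-fold. Dcc (118, 116 and 116) lay below the median on each array, as did Unc5d, Ntn5 and Ntng1. The 2 probe sets of Ntng1 disagreed, with 0.48 and -0.01 (log2) for tumor against high doxycycline. Of the genes that only share the name, Unc50 had 695, 1231 and 1230, and Unc5cl was below the median.

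Set against control, 4 of 48 bright members were at least 2-fold brighter on high doxycycline (8.33%, against 17.4% of all 11933 bright genes) and 8 were dimmer (16.7%, against 8.45%). On tumor 6 of 53 were brighter (11.3%, against 18.5% of all 12010) and 8 dimmer (15.1%, against 10.2%). The median differences of the members were -0.19 and -0.14 on the log2 scale, against 0.08 and 0.08 over all bright genes; with all arrays brought to the same median, which adds 0.14 and 0.19 to every difference, the second turned to 0.04 and that of all bright genes to 0.26. The counts for tumor became 11 brighter and 7 dimmer, where the shares of all bright genes became 23% and 8.04%. The 2 comparisons share the control array. Most macrophage, endothelial, fibroblast and muscle markers were dimmer than on control as well. Of the genes of vessels among the members, Robo4 had 360, 147 and 119, and Plxnd1, past 2-fold on high doxycycline alone, had 1695, 758 and 1383. The endothelial markers summed to 11976, 2841 and 1950. The part of these cells in the members' differences was not tested. By role, 4 of 30 bright ligands were brighter and 6 dimmer on high doxycycline, and 0 of 17 bright receptors were brighter and 2 dimmer. On tumor 4 of 32 ligands were brighter and 7 dimmer, and 2 of 20 receptors were brighter and 1 dimmer.

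**Figure D4:**
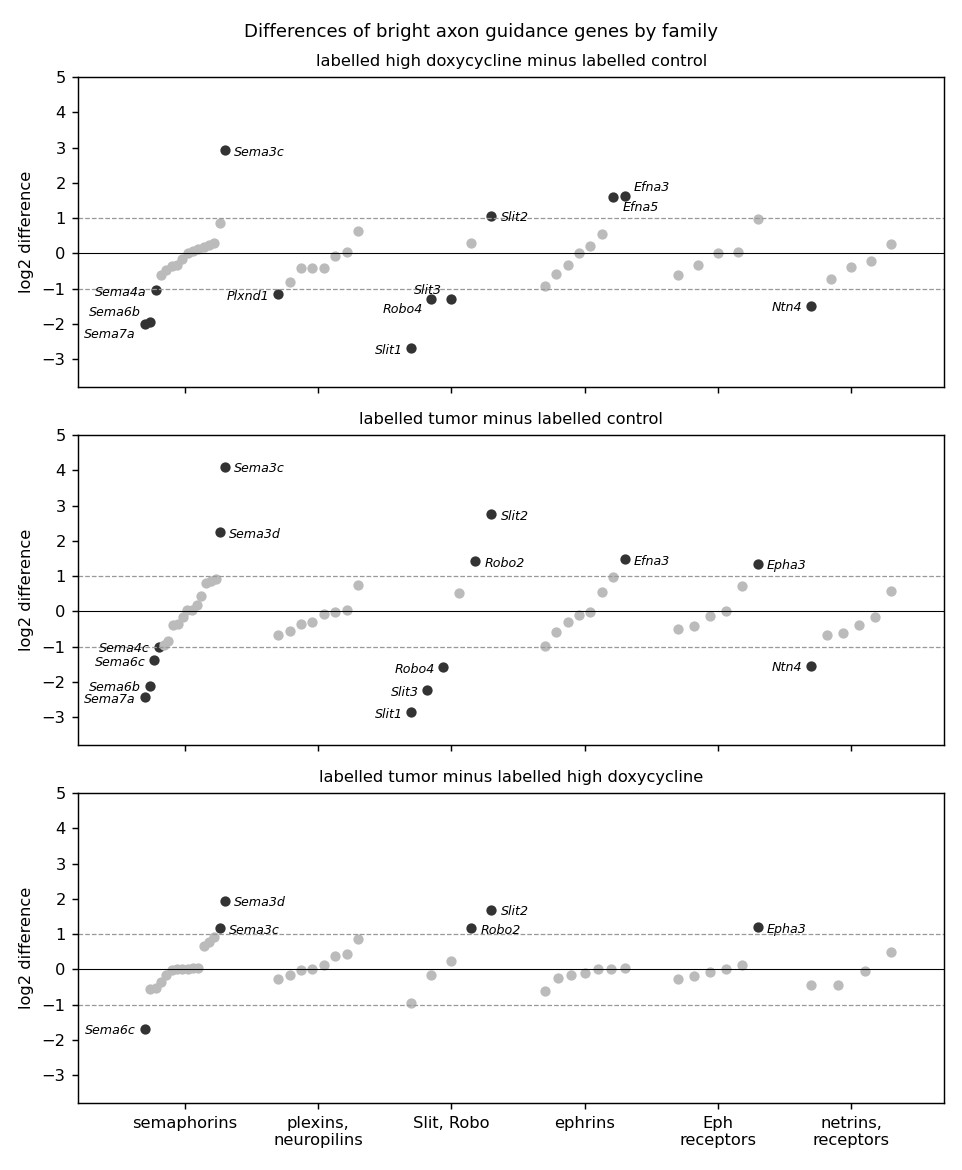
Log2 difference (vertical axis) of each bright axon guidance gene, grouped by family (horizontal axis), for high doxycycline minus control, tumor minus control and tumor minus high doxycycline by array label, with dashed lines at 2-fold and named points past them. In the lowest panel 6 members lie outside the lines, 5 above and 1 below, and the plexins, ephrins and netrins stay inside.

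Between tumor and high doxycycline the tissue markers differed less. Summed intensities were 1399 against 2399 for macrophage markers, with Cd14 (158 against 914) past 2-fold, 1950 against 2841 for endothelial markers, with Egfl7 (764 against 1574) past it, 6295 against 6784 for fibroblast and 28989 against 25658 for neuronal markers. Gene by gene, 10 of 11 macrophage and 8 of 10 endothelial markers were lower on tumor. Of 9 fibroblast and matrix markers, 6 were higher on tumor and 3 lower, and 0 of the 7 bright ones were past 2-fold. Dcn, a matrix proteoglycan, had 491 against 267, and Sparc, a matrix protein, had 398 against 243. Lower on tumor were Fn1, fibronectin (4009 against 4996), Col1a1 (332 against 343) and Col1a2 (270 against 302). Without Fn1 the fibroblast sum was 2286 against 1787. The 4 measured Schwann cell markers summed to 8955 against 5610, with Ngfr, the low-affinity nerve growth factor receptor, at 4450 against 957. The other 3, Sox10, S100b and Egr2, were slightly lower on tumor, and without Ngfr the sum was 4506 against 4653. Sema3c, Sema3d, Slit2, Robo2 and Epha3 were higher on tumor too. The part of the fibroblast markers and of Ngfr in these 5 members was not tested.

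Exactly equal values stood on tumor and high doxycycline for 18 of the 77 member probe sets (23.4%), against 34.6% of all probe sets, so that differences of 0 such as those of Efna1, Efna2 and Plxna4 are ties of the deposited table. All 3 values were equal for 5 member probe sets, those of Epha5, Ephb3, Plxnb3, Sema3e and 1 of Unc5d.

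Genes that work beside these ligands and receptors were read from 2 further lists. Of 23 measured co-receptors and other guidance molecules, 18 were bright in each comparison. Brighter than on control by at least 2-fold were 4 on high doxycycline and 4 on tumor, and dimmer were 1 and 1. These are 22.2% and 22.2% brighter, against 17.4% and 18.5% of all bright genes, and 5.56% and 5.56% dimmer, against 8.45% and 10.2%. Alcam, an adhesion molecule of fasciculating axons, had 277, 2183 and 6609 on control, high doxycycline and tumor, and was the only one past 2-fold between tumor and high doxycycline (3.03-fold). That is 1 of 18 brighter (5.56%, against 1.58% of all bright genes) and 0 dimmer (against 1.94%). Cntn1, an axonal contactin, had 93.5, 607 and 883, and L1cam, which teams with neuropilin 1, had 304, 516 and 799. Both followed the order of Sema3c. Met, the hepatocyte growth factor receptor that pairs with B plexins, had 435, 1868 and 1244. The netrin receptor Neo1 was level at 1998, 2031 and 2031.

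Of 54 measured cytoplasmic effectors, 52 were bright against control, 8 of them brighter and 2 dimmer on high doxycycline and 11 brighter and 4 dimmer on tumor. The shares brighter were 15.4% and 21.2%, near the 17.4% and 18.5% of all bright genes, and those dimmer 3.85% and 7.69%, against 8.45% and 10.2%. Limk1, the kinase that inactivates cofilin downstream of semaphorins, had 2721, 3463 and 1265, low on tumor alone like Sema6c. Dpysl4, of the collapsin response mediators that relay semaphorin signals, had 1103, 1240 and 575 in the same pattern. Its relative Dpysl5 had 1477, 431 and 228, and Mical2, of the actin-oxidising MICAL enzymes, had 949, 245 and 214, both highest on control. The adaptor Nck1 had 166, 720 and 856 and was 4.31-fold and 5.12-fold brighter than on control. Between tumor and high doxycycline 1 of 51 bright effectors was brighter (1.96%, against 1.58% of all bright genes) and 2, Limk1 and Dpysl4, were dimmer (3.92%, against 1.94%).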

How the data were processed

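Per the labels, RNA was extracted on columns, and biotin-labelled samples were read on the Affymetrix array MoGene-1_0-st-v1. The authors deposited 1 linear intensity per probe set and array; background correction, probe summary and normalization are not given in the sources used here. Probe sets were named through the platform annotation (21789 of 28856 have 1 symbol), and all 71 member genes were found in RefSeq (GRCm38.p6) by Entrez number with 0 changed symbols. The brightest of several probe sets was used. Differences are of log2(intensity + 1), computed with numpy 2.4.6 and pandas 2.3.3 over the whole table, without a test. Members named with folds were those bright and past 2-fold in any comparison, then other members and partners by family. The members, lists and alternatives were chosen with earlier results of these data known. The computation was tested on simulated data. 1 cytoplasmic effector that the counts include is not reported here by name. Alternatives were a median or quantile scaling of the arrays, another or no brightness filter, other handling of multiple probe sets, and pseudocounts of 16 and 64.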

Additional observations from a re-analysis of the deposited data

How the results depend on the processing

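No call reversed under any alternative tried, but a filter or a pseudocount cannot turn the direction of a difference. What the alternatives could change was whether a call was kept. A filter at percentile 75 leaves fewer genes. It kept 6 of 12 calls for high doxycycline against control, 8 of 14 for tumor against control and 3 of 6 for tumor against high doxycycline. Under it, 1 of 21 bright members was brighter and 5 dimmer on high doxycycline than on control, against 22.8% and 8.74% of all bright genes. On tumor 2 of 22 were brighter than on control, against 24%, and 2 were brighter than on high doxycycline, against 1.76%. With the arrays shifted to a common median, 11 members were brighter on tumor than on control, while the share over all bright genes rose from 18.5% to 23%; Efna5, Sema3a, Sema3f, Sema5a and Unc50 were added, at up to 1.17 (Efna5). A pseudocount of 64 left 3 members brighter on tumor than on high doxycycline, where the share of all bright genes was 1.19%. With it Epha3 and Robo2 became 0.96 each on the log2 scale, and Slit2 became 0.86 for high doxycycline against control. Of the 12, 14 and 6 calls in the 3 comparisons, quantile normalization kept 11, 14 and 6, and Sema4a, at -0.95, was the call lost. Quantile normalization also added Nrp2 (-1.06) for high doxycycline against control, and Efna5 (1.07) and Sema3a (1.01) for tumor against control. A pseudocount cannot change the order of the arrays within a probe set, so only the scalings bear on that order. All 17 members with folds past the limit kept it under the common median, which shifts every gene of a comparison alike. Under quantile normalization 16 kept it, and Sema6c changed from 0.31 to -0.01 for high doxycycline against control. Just past the 2-fold limit lay Sema4a (-1.04) and Sema4c (-1.01), and just short of it Epha4 (0.99), Efna5 on tumor (0.99) and Efnb3 on tumor (-0.98). No paired analysis was possible because each group has 1 array.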

Other observations

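In the RefSeq gene order, Sema3d, Sema3a, Sema3e and Sema3c lie along 1 stretch of chromosome 5 that holds 22 protein-coding genes, of which 8 were measured here. This stretch was looked up after the values were seen. Besides the semaphorins, Cacna2d1, a calcium channel subunit gene, had intensities of 320, 1753 and 4488 on control, high doxycycline and tumor, the same order as Sema3c, and was 2.56-fold brighter on tumor than on high doxycycline. Its neighbour Hgf, the ligand of Met, was level at 1477, 1477 and 1455, and Pclo was listed at 136 on each array, as Sema3e was at 112.

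Epha3 and Robo2 likewise lie on 1 stretch of chromosome 16, from Epha6 to Robo2, with 20 protein-coding genes and 16 measured. Of the 12 measured genes there that are no guidance genes, 7 were bright in tumor against high doxycycline, and 0 were past 2-fold. Few genes are in this comparison, with 1.58% of all bright genes brighter and 1.94% dimmer by that margin. The largest difference among them was 0.76 on the log2 scale, for the glycogen branching enzyme gene Gbe1 (332, 2293 and 3892).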
